A study of Mus musculus with 63 samples.

Results

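A set of 45 genes of cell proliferation was followed through a transcriptome data set from mouse entorhino-hippocampal tissue cultures in which the perforant path had been cut. The genes were taken by symbol from a list of genes with known roles in DNA replication and cell division, and all 45 were found among the 55291 gene symbols of the count tables. The list was drawn up from these roles, with earlier results of these data known.

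Cells that divide copy their DNA in S phase and separate the copies in mitosis. Entry into S phase is governed by cyclin E and the E2F transcription factors, the copying is done by replication forks that carry the MCM helicase and the PCNA clamp, and entry into mitosis is governed by cyclin B bound to the kinase Cdk1. Many of these genes are transcribed only in dividing cells and at a set stage of the cycle, so their mRNAs are widely used as markers of proliferation. Most neurons no longer divide, whereas microglia, astrocytes and oligodendrocyte precursors can divide after a lesion of the hippocampus, and the dentate gyrus also holds neural progenitors.

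Tissue cultures with entorhinal cortex were prepared between postnatal days 3 and 5 from C57BL/6J mice (Synpo+/+) and from mice of the line B6.129-Synpo tm1Mndl/Dllr (Synpo-/-), which lack the actin-associated protein synaptopodin and had been back-crossed to C57BL/6J. Animals of either sex were used, and all cultures matured for at least 18 days in vitro. In the entorhinal cortex lesion (ECL) the entorhinal input was cut away with a scalpel, which partly denervates both dentate granule cells and CA3 pyramidal cells. Dentate gyrus (DG) or CA3 was dissected from a single culture per library, from non-lesioned control cultures or 3 days after ECL. The regional libraries comprised 2 control and 3 lesioned Synpo+/+ CA3 samples, 4 control and 7 lesioned Synpo+/+ DG samples, 6 control and 6 lesioned Synpo-/- CA3 samples, and 7 control and 4 lesioned Synpo-/- DG samples. In addition, 5 control and 5 lesioned Synpo+/+ whole-culture lysates were available, each from 6 pooled cultures, which had served as the input of a co-immunoprecipitation. The labels give no day after ECL for these inputs.

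The regional libraries held between 14055930 and 46043990 counts assigned to genes and the input libraries between 19844632 and 29014397. None of the 45 genes had a count of 0 in any of these libraries, and all of them passed the filter on low counts in every comparison. Levels are given below as counts per 1000000 of a library's total (CPM), with the standard deviation over libraries. Fold changes come from the fit of edgeR across all genes, which rescales the libraries further, so that they can differ slightly from the ratio of mean CPM values. The count of the Synpo gene did not fall with the label Synpo-/-, and was 54.8 ± 9.04 CPM (SD, n = 7) in control DG so labelled against 25.6 ± 2.99 (SD, n = 4) in Synpo+/+ control DG. The genotype label could therefore not be checked by the count of the gene. A single regional library stood apart from its group: in lesioned Synpo+/+ DG replicate 5 the summed level of 4 granule cell markers was 23.04 CPM, against 330.4 to 425 CPM in the control DG libraries of this genotype and 41.56 to 41.59 CPM in its control CA3. Its summed level of 4 CA3 pyramidal cell markers was 539.6 CPM, against 176 to 298.9 CPM in these DG controls and 439.2 to 537.8 CPM in the CA3 controls. Both sums thus went against the label DG and lay at the level of CA3, and whether the library is mislabelled was not settled by the labels. Sums of the other lesioned DG libraries are not set beside it here, so an effect of the lesion on these markers was not separated. For the lesion response of the DG and the comparison of the regions, the numbers of genes called are therefore given with and without this library. Fold changes and levels include it unless stated.

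Some promoter elements, which the choice of genes did not use, were more frequent among the genes than over all symbols. RefSeq promoter windows on GRCm38.p6, which run from 250 bases before to 50 bases after the transcription start, were matched to 39 of the 45 genes. Ccna2, Ccne2, Mcm4, Aurkb, Tpx2 and Kif20a had no match. The windows were searched on both strands for the CCAAT box (CCAAT), for TTTGAA, which is the cell cycle homology element of many genes of G2 and mitosis, and for E2F-type sites (TTTCCCGC, TTTCGCGC, TTTGCCGC or TTTGGCGC). CCAAT was found for 30 of the 39 genes (76.9%), against 41.1% of all 27025 symbols with a window. TTTGAA was found for 20 genes (51.3%) against 20.2% of all symbols, and both motifs together for 19 genes (48.7%) against 7.97%. An E2F-type site was found for 7 genes (17.9%) against 2.6% of all symbols. A symbol with several windows was counted once, and a match of letters is a description of the window, not of a bound site.

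The stretches of 170 bases before the start are shown for 6 genes whose levels recur below, 5′ to 3′ in the direction of transcription, with every match in capitals (either strand). They are Cdk1 (chr10:69352913-69353082, minus strand) and Ccnb2 (chr9:70421555-70421724, minus strand), both of mitotic entry, Mki67 (chr7:135716380-135716549, minus strand) and Birc5 (chr11:117849067-117849236, plus strand), and the replication genes Mcm5 (chr8:75109339-75109508, plus strand) and Pcna (chr2:132253181-132253350, minus strand).
Cdk1: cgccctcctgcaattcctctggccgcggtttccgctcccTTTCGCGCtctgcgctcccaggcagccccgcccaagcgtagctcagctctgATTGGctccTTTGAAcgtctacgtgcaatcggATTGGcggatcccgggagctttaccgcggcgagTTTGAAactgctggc
Ccnb2: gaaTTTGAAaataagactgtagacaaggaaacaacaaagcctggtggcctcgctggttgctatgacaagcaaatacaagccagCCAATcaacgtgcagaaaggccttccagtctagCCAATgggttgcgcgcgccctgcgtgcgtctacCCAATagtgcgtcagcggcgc
Mki67: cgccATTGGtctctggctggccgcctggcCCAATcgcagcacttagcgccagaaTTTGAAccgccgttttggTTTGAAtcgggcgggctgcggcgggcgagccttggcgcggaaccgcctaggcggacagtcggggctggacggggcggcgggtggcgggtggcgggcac
Birc5: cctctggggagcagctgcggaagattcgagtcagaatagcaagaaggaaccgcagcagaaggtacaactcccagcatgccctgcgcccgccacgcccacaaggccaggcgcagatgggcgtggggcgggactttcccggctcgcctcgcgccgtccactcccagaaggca
Mcm5: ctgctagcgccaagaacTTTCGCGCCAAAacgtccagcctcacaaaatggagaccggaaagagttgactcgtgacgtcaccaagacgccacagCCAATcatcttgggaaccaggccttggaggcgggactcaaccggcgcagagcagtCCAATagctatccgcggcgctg
Pcna: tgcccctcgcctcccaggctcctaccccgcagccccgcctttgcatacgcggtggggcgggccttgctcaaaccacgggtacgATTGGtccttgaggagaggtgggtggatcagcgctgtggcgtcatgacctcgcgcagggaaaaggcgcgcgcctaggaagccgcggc

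The upstream stretches of Cdk1, Ccnb2 and Mki67 hold both CCAAT, partly as its reverse complement ATTGG, and TTTGAA. The stretch of Mcm5 holds CCAAT boxes and E2F-type sites that overlap on opposite strands, that of Pcna a single CCAAT box, and that of Birc5 none of these letters. The motifs were not evenly spread over the roles. Both CCAAT and TTTGAA were present for 5 of 7 genes of mitotic entry, 3 of 4 genes of the spindle checkpoint and anaphase, and 4 of 6 genes of the spindle and cytokinesis, but for 2 of 9 genes of the replication fork and 0 of 4 genes of nucleotide supply. E2F-type sites were present for 6 of the 9 replication genes.

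In control cultures the 45 genes differed widely in level. Divided by exon length, Pcna, the clamp that holds DNA polymerase on the template, was highest, at 42.4 ± 5.07 CPM per kb (SD, n = 19 control libraries of both regions and genotypes). Ccne2, a cyclin E, followed at 6.05 ± 0.687 CPM per kb and Mcm4, a subunit of the MCM helicase, at 4.19 ± 0.518. Tpx2, a spindle assembly factor, came next at 2.66 ± 0.514 CPM per kb, beside Mcm6, a further helicase subunit, at 2.64 ± 1.01. Their order depended on the region: the mean level of Mcm6 in Synpo-/- controls was 3.41 CPM per kb in DG and 1.49 in CA3, where Tpx2 had 3.14 and 2.20 CPM per kb, and in Synpo+/+ controls Mcm6 had 3.40 and 1.87 where Tpx2 had 2.56 and 2.59. Strand was not used in counting, and exons of another annotated gene overlap those of 12 of the 45 genes, among them Ccne2 (with Ints8), Top2a, Tk1 and Plk1, so that their reads may belong in part to the neighbour. Reads of Ccnb2 may also be shared with its pseudogene Ccnb2-ps, which had up to 138 counts in a library. The lowest were Cdc6, which loads the MCM helicase, at 0.287 CPM per kb, the checkpoint kinase Ttk at 0.289 and the mitotic kinase Plk1 at 0.314.

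To see how the genes of the cell cycle responded to denervation in the DG, lesioned and control Synpo+/+ DG were compared first. After ECL, 17 of the 45 genes were higher and 0 were lower (adjusted p under 0.05 in the quasi-likelihood test of edgeR, Benjamini-Hochberg over all genes). Of all 23720 genes tested, 7.86% were higher and 4.31% lower. The log2 fold change was positive for 39 of the 45 genes, with a median of 0.46 against 0.00 over all genes. For 9 genes all lesioned libraries were above all controls (3.68% of all genes) and for 0 they were all below (6.11%). Without lesioned replicate 5, 16 genes were higher, and of the 33 genes with no overlapping exons 13 were higher. The shares of all genes given above belong to the fit with all libraries. In tissue libraries of this kind, more dividing cells and more mRNA per cell cannot be told apart.

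**Figure D1:**
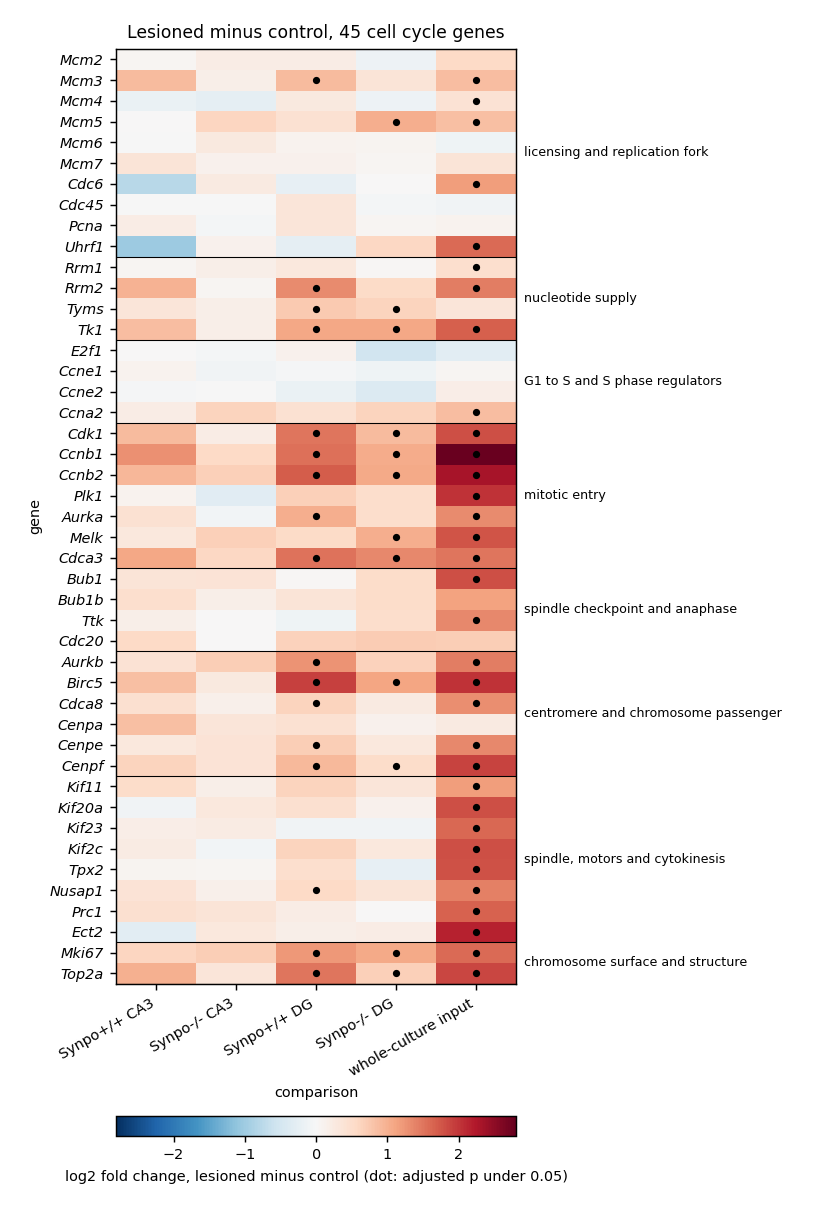
Lesion response of the 45 genes (vertical axis, grouped by role) in the 4 regional comparisons and in the whole-culture input (horizontal axis), coloured by the log2 fold change of lesioned over control, with a dot where the adjusted p was under 0.05. The dots lie in the DG columns (17 genes in Synpo+/+ and 12 in Synpo-/-) and in the input column (33 genes), and the CA3 columns have none.

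The strongest responses in Synpo+/+ DG were those of genes that act in G2 and mitosis. Birc5, which encodes survivin, a subunit of the chromosomal passenger complex, had 2.5, 1.84, 2.62 and 2.98 CPM in the control libraries and from 5.78 to 10.3 CPM (median 8.77) in the 7 lesioned ones. The groups did not overlap, and Birc5 was 3.77-fold higher after ECL (log2 fold change 1.92, SE 0.18, adjusted p = 2.92e-05). The cyclins of mitosis followed it. Ccnb2 rose from 2.58, 3.39, 2.41 and 2.17 CPM in control to between 5.54 and 11.3 CPM (median 7.61), again without overlap (log2 fold change 1.70, SE 0.21, adjusted p = 0.000265). Ccnb1 had 3.61, 1.7, 1.63 and 3.28 CPM in control and 3.62, 4.37, 4.7, 10.8, 5.69, 9.22 and 9.56 CPM after ECL, so that the lowest lesioned library lay just above the highest control library (log2 fold change 1.55, SE 0.34, adjusted p = 0.0115). Their kinase Cdk1 rose from 2.9, 2.97, 2.57 and 4.6 CPM to between 6.19 and 11 CPM (median 8.54). All lesioned libraries were above all controls, and the log2 fold change was 1.5 (SE 0.20, adjusted p = 0.000356). All 5 called genes of mitotic entry, out of 7, are these 3 together with Cdca3, a trigger of mitotic entry (log2 fold change 1.52, adjusted p = 0.0013), and Aurka, the centrosomal Aurora kinase (1.01, adjusted p = 0.0427). The call of Aurka was lost when any of several single libraries was left out, including replicate 5 (adjusted p = 0.0558). Plk1 and Melk did not pass the test (log2 fold changes 0.66 and 0.53).

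Top2a, the topoisomerase that untangles chromosomes, and Mki67, which encodes the Ki-67 protein that coats mitotic chromosomes, were both higher. Top2a had 9.01, 9.68, 5.51 and 9.6 CPM in control and between 15.2 and 27.7 CPM (median 24.8) after ECL, without overlap (log2 fold change 1.51, SE 0.20, adjusted p = 0.000337). Mki67 had 5.56, 8.77, 6.5 and 9.4 CPM in control. In 6 of the 7 lesioned libraries it lay between 12.8 and 19.9 CPM, while replicate 5, the library with the low granule cell markers, had 6.71 CPM and fell within the control range. The log2 fold change of Mki67 was 1.21 (SE 0.22, adjusted p = 0.0036).

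Of 6 genes of the centromere and the chromosomal passenger complex, 5 were higher, namely Birc5, the kinetochore proteins Cenpf (log2 fold change 0.91) and Cenpe (0.68), and the passenger subunits Aurkb (1.25) and Cdca8 (0.63). Cenpa, the histone of the centromere, did not pass the test (0.43, adjusted p = 0.248). The genes of nucleotide supply also rose, 3 of 4 in number. Rrm2, the regulated subunit of ribonucleotide reductase, had a log2 fold change of 1.32 (SE 0.26, adjusted p = 0.0054), the thymidine kinase Tk1 one of 1.09 (SE 0.20, adjusted p = 0.0032) and the thymidylate synthase Tyms one of 0.73 (SE 0.13, adjusted p = 0.0036).

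Fewer genes of the replication fork passed the test than of mitotic entry, a difference between roles that was not itself tested. Among 10 genes of licensing and replication, with a median log2 fold change of 0.24, Mcm3 alone passed the test (0.88, SE 0.20, adjusted p = 0.0122). Pcna had 96.9, 77.8, 99.7 and 93.8 CPM in control and between 93.2 and 124 CPM (median 102) after ECL, and the groups overlapped (log2 fold change 0.34, SE 0.13, adjusted p = 0.0812). Mcm5 had 1.98, 2.69, 1.78 and 1.62 CPM in control and between 1.93 and 2.87 CPM after ECL (log2 fold change 0.42, SE 0.20, adjusted p = 0.151). None of the 4 regulators of S phase entry, Ccna2, Ccne1, Ccne2 and E2f1, and none of the 4 genes of the spindle checkpoint and anaphase, Bub1, Bub1b, Cdc20 and Ttk, passed the test. Of 8 genes of the spindle and cytokinesis 1 was called, Nusap1, a binder of spindle microtubules (log2 fold change 0.55, adjusted p = 0.0281), whose exons overlap those of Oip5. Without control replicate 3, and likewise without control replicate 4, the calls of Aurka, Aurkb, Cdca8, Mcm3 and Nusap1 were lost, which left 12 genes.

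**Figure D2:**
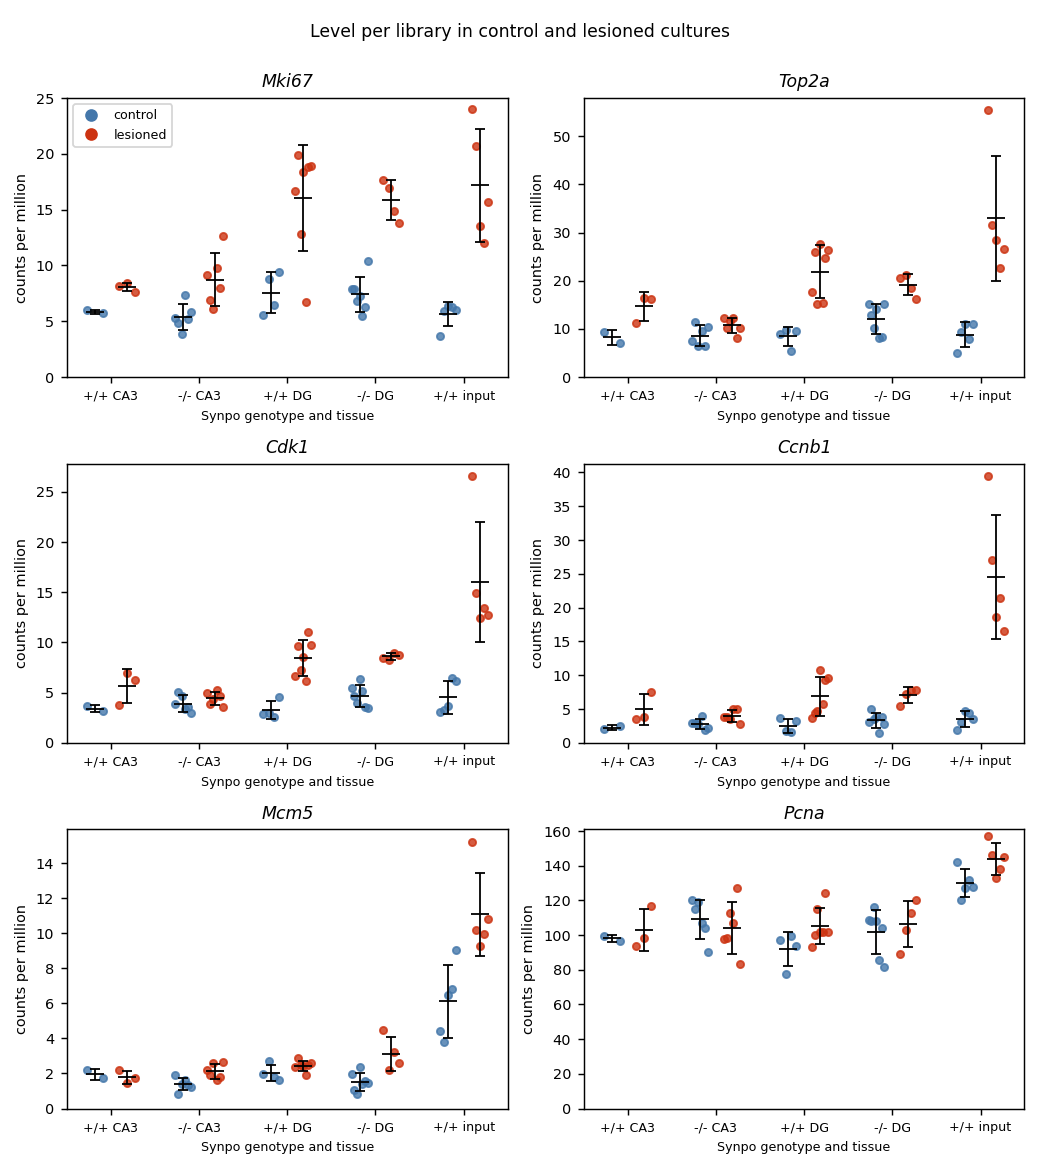
Levels (CPM, vertical axis from 0) of Mki67, Top2a, Cdk1, Ccnb1, Mcm5 and Pcna in every library of the regional and input groups (1 point per library, with the group mean and SD in black; control in blue, lesioned in red). For Cdk1 all 7 lesioned Synpo+/+ DG libraries (6.19 to 11 CPM) lie above the 4 controls, and for Pcna the lesioned and control libraries of each group overlap.

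In the DG of cultures labelled Synpo-/-, 12 of the 45 genes were higher after ECL and 0 were lower, where 5.17% of all 23310 genes were higher and 3.36% lower. The log2 fold change was positive for 37 genes (median 0.36, against 0.01 over all genes), and 10 of the 33 genes with no overlapping exons were called. All lesioned libraries were above all controls for 12 genes (4.72% of all genes) and below them for 1, Ccne2 (3.38%). Mki67 had 17.7, 16.9, 14.9 and 13.8 CPM in the lesioned libraries and between 5.45 and 10.4 CPM (median 7.27) in the 7 controls. The groups did not overlap, and the log2 fold change was 1.07 (SE 0.14, adjusted p = 0.000176). Birc5 had 9.4, 10.1, 7.5 and 8.73 CPM after ECL and between 2.88 and 5.24 CPM (median 4.27) in control (log2 fold change 1.09, SE 0.17, adjusted p = 0.000673). Cdk1 had 8.45, 8.25, 8.99 and 8.79 CPM after ECL, above a control range of 3.43 to 6.33 CPM (log2 fold change 0.88, SE 0.16, adjusted p = 0.0032). In both genes every lesioned library was above every control library.

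Of the genes called in the DG of each genotype, 10 were the same, namely Tyms, Tk1, Cdk1, Ccnb1, Ccnb2, Cdca3, Birc5, Cenpf, Mki67 and Top2a. They make up 10 of the 17 genes called in Synpo+/+ DG and 10 of the 12 called in Synpo-/- DG. The same overlap was not counted over all genes, so it is not shown to be particular to the set. In Synpo-/- DG the remaining called genes were Mcm5 and Melk, a kinase of dividing progenitors. Mcm5 had 4.46, 2.21, 3.2 and 2.57 CPM after ECL and from 0.81 to 2.35 CPM in control (log2 fold change 1.02, SE 0.26, adjusted p = 0.0201), and the groups overlapped at their edges. The calls of Mcm5 and Melk were each lost when a single library was left out, for both of them when lesioned replicate 1 was left out (adjusted p = 0.0939 and 0.0905), and so was that of Cenpf (adjusted p = 0.084). Top2a had 20.6, 21.1, 18.5 and 16.3 CPM after ECL, all above its control range of 8.14 to 15.2 CPM (log2 fold change 0.66, SE 0.16, adjusted p = 0.0155). Pcna was between 89.4 and 120 CPM after ECL and between 81.7 and 116 CPM in control (log2 fold change 0.05), so that the groups overlapped almost fully.

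In CA3 no gene of the set passed the test after ECL. In Synpo+/+ CA3, with 2 control and 3 lesioned libraries, 0 of 45 genes were called by edgeR where 1.5% of all 22340 genes were higher and 0.273% lower, and 12 genes, 11 of them higher, had an unadjusted p under 0.05. Over all genes 23.9% had such a p, so that the count in the set without regard to direction (12 of 45) was near the background. With a higher level 13.8% of all genes had such a p, a smaller share than the 11 of 45 in the set. The difference of these shares was not tested. DESeq2 called 2, and edgeR called 9 when genes of low count were kept in the fit. The shares of all genes given above belong to the filtered edgeR fit and were not set beside these counts. The log2 fold change was positive for 37 genes (median 0.34, against -0.01 over all genes). For 15 of the 45 genes all lesioned libraries were above both controls, which was the case for 14% of all genes tested. For 5 genes, Cdc6, Ect2, Mcm4, Mcm6 and Uhrf1, all lesioned libraries were below both controls, against 28.8% of all genes. Top2a had the smallest adjusted p, with 9.36 and 7.12 CPM in control and 11.2, 16.5 and 16.3 CPM after ECL (log2 fold change 0.99, SE 0.23, adjusted p = 0.0581). Mki67 had 5.98 and 5.7 CPM in control and 8.16, 8.41 and 7.66 CPM after ECL (log2 fold change 0.60, adjusted p = 0.0976). In both genes the groups did not overlap. Cdk1 had 3.66 and 3.15 CPM in control and 3.72, 6.98 and 6.28 CPM after ECL (log2 fold change 0.89, adjusted p = 0.129). Pcna had 99.4 and 96.8 CPM in control and 93.9, 98.4 and 117 CPM after ECL, and Mcm5 2.18 and 1.72 CPM against 2.17, 1.44 and 1.73 CPM. Neither separated the groups. Uhrf1, which maintains DNA methylation behind the replication fork, had the largest negative value (-1.02, adjusted p = 0.0995).

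In Synpo-/- CA3, with 6 libraries per group, 0 genes of the set were called by edgeR. Of all 20772 genes, 0.053% were higher and 0.0241% lower. In the set 12 genes, 11 of them higher, had an unadjusted p under 0.05, as did 7.27% of all genes. With a higher level 3.79% of all genes had such a p, a smaller share than the 11 of 45 in the set. The difference of these shares was not tested. DESeq2 called 1. The log2 fold change was positive for 36 genes, with a median of 0.17 against 0.00 over all genes. Mki67 lay between 3.89 and 7.38 CPM (median 5.26) in control and between 6.07 and 12.6 CPM (median 8.54) after ECL, with overlapping groups (log2 fold change 0.70, SE 0.17, adjusted p = 0.236). Top2a lay between 6.49 and 11.4 CPM in control and between 8.17 and 12.2 CPM after ECL (log2 fold change 0.34), and Cdk1 between 2.95 and 5.1 CPM and between 3.58 and 5.26 CPM (0.20). For Pcna the ranges were 90.1 to 120 CPM and 83.1 to 127 CPM (-0.05), and for Mcm5 0.839 to 1.91 CPM and 1.62 to 2.65 CPM (0.60, adjusted p = 0.57). All of these ranges overlapped, and there was no gene of the set whose lesioned libraries were all above the controls (0.226% of all genes were) or all below them (0.313%).

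Whether the lesion response differed between DG and CA3 was asked after the data had been seen, by a test of the difference of the 2 responses. In Synpo+/+ cultures the difference was positive, that is larger in DG, for 35 genes (median 0.22). Of the set, 0 were called by edgeR and by DESeq2. Over all genes edgeR called 0% higher, and DESeq2 called 9 genes higher and 0 lower. In the edgeR fit 1 gene of the set had an unadjusted p under 0.05 (4.46% of all genes did). Without lesioned DG replicate 5 edgeR again called 0 of the set, with 2 at an unadjusted p under 0.05 (7.19% of all genes). In the cultures labelled Synpo-/- the difference was positive for 27 genes (median 0.13), and again 0 were called by edgeR and by DESeq2. Over all genes edgeR called 0.877% higher, and DESeq2 called 444 genes higher and 233 lower. In the edgeR fit 6 genes of the set had an unadjusted p under 0.05 (11% of all genes). Birc5 had the smallest adjusted p there (difference 0.80, SE 0.25, adjusted p = 0.126). A larger response in DG than in CA3 was thus not shown for any single gene of the set.

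Genes of other cell types rose with the set in the DG. All 13 microglial markers were higher after ECL in Synpo+/+ DG and 11 of 13 in Synpo-/- DG, and their summed level went from 665.9 to 873.2 CPM in control to 1401 to 1776 CPM in Synpo+/+, and from 754.5 to 1405 CPM to 1538 to 2193 CPM in Synpo-/-. Of 8 astrocyte markers 6 and 7 were higher, with summed levels of 5030 to 5779 CPM against 6325 to 8697 CPM in Synpo+/+ and of 5240 to 6089 CPM against 7351 to 10650 CPM in Synpo-/-. Of 6 markers of oligodendrocyte precursors 4 and 3 were higher, with summed levels of 50.87 to 66.1 CPM against 70.25 to 91.48 CPM in Synpo+/+ and of 57.08 to 70.84 CPM against 72.7 to 125.5 CPM in Synpo-/-. In CA3, where no gene of the set was called, 2 microglial markers were higher in Synpo+/+ and 0 in Synpo-/-, and astrocyte and precursor markers were not called. No marker of these lists was at 0 in any group, and their part in the response of the cell cycle genes was not tested.

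Most genes of the set were called in the lysates of whole cultures. Here 33 of the 45 genes were higher after ECL and 0 were lower, where 2.45% of all 17951 genes were higher and 3.16% lower. The log2 fold change was positive for 42 genes (median 1.34, against 0.00 over all genes). Of the 33 genes with no overlapping exons 25 were higher. For 35 of the 45 genes all 5 lesioned inputs were above all 5 control inputs, which was the case for 4.25% of all genes, and for 0 they were all below (2.38%). The libraries co-immunoprecipitated from these lysates with synaptopodin were not tested. There the lesioned libraries were all above the controls for 27 of the 45 genes (1.82% of all genes) and all below them for 0 (0.954%). The summed level of the set in the input was between 389.1 and 467.5 CPM in control and between 681.8 and 987.6 CPM after ECL.

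All 7 genes of mitotic entry rose in the input. Ccnb1 had 1.91, 3.05, 4.77, 4.36 and 3.45 CPM in control and 39.4, 27, 18.6, 21.4 and 16.5 CPM after ECL. The lowest lesioned input was far above the highest control, and the change was 6.85-fold (log2 fold change 2.78, SE 0.25, adjusted p = 0.000143). Ccnb2 rose 4.93-fold (log2 fold change 2.30, SE 0.20), Plk1 4.06-fold (2.02, SE 0.31) and Cdk1 3.47-fold (1.79, SE 0.25, adjusted p = 0.0017). Plk1 had 1.35, 2.54, 1.32, 2.44 and 2.28 CPM in control and 14.8, 10.2, 6.55, 5.09 and 4.59 CPM after ECL, whereas in every regional group it stayed at or below 1.47 CPM. Mki67 had 3.7, 5.91, 6.35, 6.24 and 5.98 CPM in control and 24, 20.7, 13.5, 12 and 15.7 CPM after ECL, without overlap (log2 fold change 1.58, SE 0.19, adjusted p = 0.00068). Top2a had 4.9, 9.28, 11, 7.87 and 11 CPM in control and 55.4, 31.6, 28.5, 22.6 and 26.6 CPM after ECL (log2 fold change 1.87, SE 0.24, adjusted p = 0.00085). The lesioned input replicate 1 had the highest level for both genes.

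All 8 genes of the spindle and cytokinesis rose in the input, of which only Nusap1 was called in the DG. Ect2, the exchange factor that starts the cleavage furrow, had 1.08, 0.901, 1.62, 2.01 and 2.92 CPM in control and 11.8, 8.81, 5.68, 4.54 and 7.66 CPM after ECL (log2 fold change 2.16, SE 0.31, adjusted p = 0.0019). The groups did not overlap. Kif23, the motor of the central spindle, lay between 1.11 and 1.25 CPM in control and between 2.99 and 4.69 CPM after ECL (log2 fold change 1.62, SE 0.19, adjusted p = 0.000437). Kif20a (1.80), Kif2c (1.80), Tpx2 (1.79), Prc1 (1.65), Nusap1 (1.41) and the motor Kif11 (1.17) were also higher. Exons of Cdc23, Rccd1 and Oip5 overlap those of Kif20a, Prc1 and Nusap1 on the opposite strand. Of the checkpoint genes Bub1 (1.80) and Ttk (1.34) rose, while Bub1b (1.12, adjusted p = 0.051) and Cdc20, the activator of anaphase (0.68, adjusted p = 0.122), did not pass the test.

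Of the 10 genes of licensing and replication 5 were higher in the input, namely Uhrf1 (log2 fold change 1.58), Cdc6 (1.17), Mcm3 (0.87), Mcm5 (0.84) and Mcm4 (0.41), and the median of the 10 was 0.49. Pcna had 142, 120, 127, 132 and 128 CPM in control and 157, 146, 133, 138 and 145 CPM after ECL (log2 fold change 0.11, SE 0.07, adjusted p = 0.478). The ranges overlapped. Mcm6 had a log2 fold change of -0.12. Of the 4 regulators of S phase entry Ccna2, the cyclin A of S and G2 phase, was called (0.87, adjusted p = 0.0162), while Ccne1, Ccne2 and E2f1 did not pass. Nucleotide supply rose with Tk1 (1.67), Rrm2 (1.43) and Rrm1 (0.46), and Tyms did not pass (0.34, adjusted p = 0.113). Without lesioned input replicate 1 the calls of Mcm5, Cdc6 and Kif11 were lost (adjusted p = 0.0744, 0.0642 and 0.0583), and without control input replicate 2 those of Mcm5, Cdc6, Mcm3, Uhrf1 and Ccna2, which left 28 genes. The call of Mcm5 was also lost without lesioned input replicate 2 or 3, or without control input replicate 1 or 3. That of Cdc6 was also lost without lesioned input replicate 2 or 3, and that of Mcm3 without lesioned input replicate 3.

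**Figure D3:**
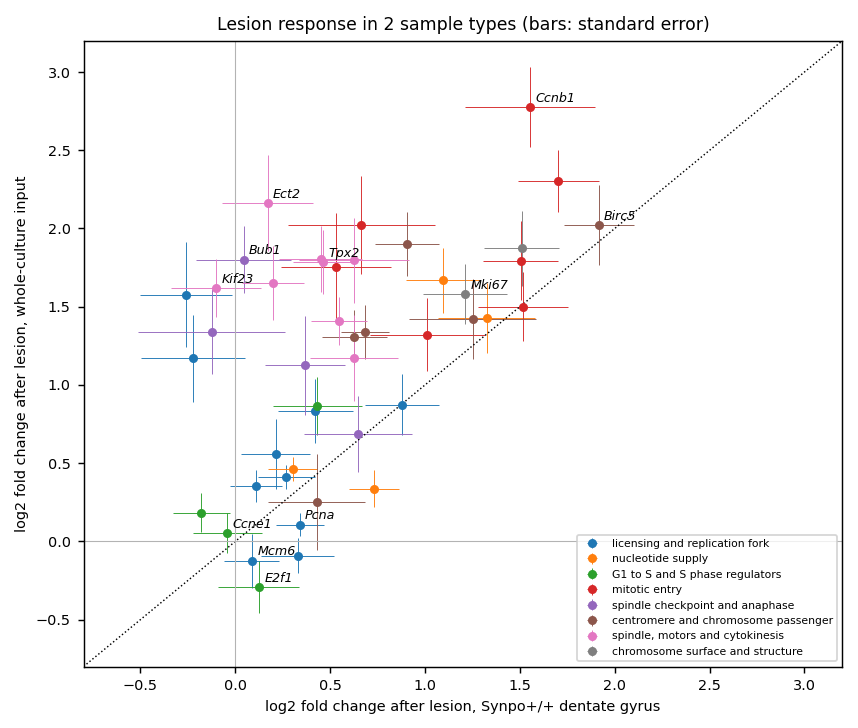
Lesion response of each of the 45 genes in the whole-culture input (vertical axis, log2 fold change) against that in Synpo+/+ DG (horizontal axis, log2 fold change), coloured by role, with bars for the SE and a dotted line of equal response. Genes of the spindle and cytokinesis such as Ect2 (2.16 in the input, 0.17 in DG) and Kif23 (1.62 and -0.10) lie well above the line, and Birc5 (2.02 and 1.92) lies close to it.

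After these values had been seen, the response of the input was tested against that of Synpo+/+ DG. The difference was larger in the input for 10 of the 45 genes and smaller for 0, where 0.605% of all 25631 genes tested were larger and 3.51% smaller in the input (median difference of the set 0.40). Of these 10, 6 belong to the spindle and cytokinesis, namely Kif23 (difference 1.71, SE 0.31, adjusted p = 0.0085), Ect2 (1.99), Tpx2 (1.32), Prc1 (1.45), Kif20a (1.35) and Nusap1 (0.85). The others were Bub1 (1.75), Uhrf1 (1.83), Cenpf (0.99) and Cdc6 (1.38). Without lesioned DG replicate 5 the number was 9. Region, lysis and RNA isolation of pooled cultures, read length and possibly the day after ECL differ between the 2 sets and cannot be told apart here. In the input 6 of 13 microglial markers and 1 of 8 astrocyte markers were higher, with summed levels of 915.5 to 1552 CPM against 1404 to 2254 CPM and of 16670 to 25550 CPM against 22920 to 33590 CPM. The precursor markers Pdgfra, Cspg4, Olig1, Olig2, Sox10 and Gpr17 were not called in the input. The part of the marker genes in the response was not tested.

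The effect of the genotype was examined within region and lesion state. edgeR called 0 genes of the set in control CA3, control DG, lesioned CA3 and lesioned DG, with 0, 7, 2 and 1 genes at an unadjusted p under 0.05, and DESeq2 called 0, 1, 0 and 0. Of all genes tested, 16.4%, 15.5%, 6.16% and 3.56% had an unadjusted p under 0.05. The 7 of 45 in control DG were near this share when direction was left aside. By direction, 6 of the 7 were higher in Synpo-/-, where 5.76% of all genes had such a p with a higher level. The difference of these shares was not tested. By the adjusted p of edgeR, 0.00413% of all genes were higher and 0% lower in Synpo-/- in control CA3, and 0.0124% and 0.00414% in control DG. The shares were 0.00445% and 0.00445% in lesioned CA3, and 0.0083% and 0.0083% in lesioned DG. Birc5 had the smallest adjusted p in control DG, with between 2.88 and 5.24 CPM in the 7 libraries labelled Synpo-/- and between 1.84 and 2.98 CPM in the 4 of Synpo+/+ (log2 fold change 0.79, SE 0.21, adjusted p = 0.207). Without Synpo-/- control DG replicate 4, edgeR called 1 gene there. The Synpo gene, in contrast, was higher in Synpo-/- control DG (log2 fold change 1.17, SE 0.13, adjusted p = 0.00052).

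Whether the lesion response itself differed between the genotypes was tested as an interaction, which was not shown for any gene of the set. In DG 0 of 45 were called by edgeR and by DESeq2, where edgeR called 0.00381% of all genes higher. In the edgeR fit 11 of the 45 had an unadjusted p under 0.05, where 10.4% of all genes had one. For 1 of these 11 the log2 fold change after ECL was higher in Synpo-/-, where 5.1% of all genes had such a p in this direction. For the rest of the 11 it was lower, and these shares were not tested against each other. The difference, Synpo-/- minus Synpo+/+, was positive for 9 genes (median -0.30, against -0.02 over all genes). Its size was -0.86 (SE 0.25) for Birc5, -0.88 (SE 0.26) for Top2a, -0.72 (SE 0.20) for Tpx2 and 0.80 (SE 0.31) for Uhrf1, all with an adjusted p of 0.478. Without lesioned Synpo+/+ DG replicate 5, 0 genes were called for this interaction and 0 for the genotype in lesioned DG. In CA3 0 genes of the set were called by edgeR and by DESeq2, where edgeR called 0% of all genes. In the edgeR fit 3 of the set had an unadjusted p under 0.05, where 17.1% of all genes had one (median difference -0.21).

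The regions were compared within genotype and lesion state. Mcm6, a subunit of the MCM helicase, was higher in DG than in CA3 in all 4 comparisons. In Synpo+/+ control cultures it had 15.6, 16.3, 15.6 and 16.1 CPM in DG and 8.23 and 9.2 CPM in CA3, without overlap (log2 fold change 0.73, SE 0.18, adjusted p = 0.0248). It was the single gene of the set called there, where 2.63% of all genes were higher and 2.75% lower in DG, and the call was lost without any of 4 libraries, namely control CA3 replicates 1 and 2 (adjusted p = 0.208 and 0.0893) and control DG replicates 1 and 3 (0.0541 and 0.0664). Without control DG replicate 4 edgeR called 2 genes. In control cultures labelled Synpo-/- Mcm6 lay between 12.2 and 19.8 CPM in DG and between 5.9 and 8.93 CPM in CA3 (log2 fold change 1.11, SE 0.14, adjusted p = 5.3e-06). There 7 genes of the set were higher in DG, where 13.1% of all genes were, and 2 were lower, where 12.5% of all genes were. Cenpa was 10.8 ± 2.91 CPM in DG (SD, n = 7) and 4.52 ± 1.21 CPM in CA3 (SD, n = 6; log2 fold change 1.18), while Tyms (-0.48) and Kif2c, a depolymerase of microtubules (-0.55), were lower in DG. The call of Kif2c was lost without any of 9 single libraries. The markers of dentate granule cells summed to between 264.2 and 462.5 CPM in these DG libraries and to between 27.7 and 89.75 CPM in CA3, and the part of cell composition in the regional differences was not tested.

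**Figure D4:**
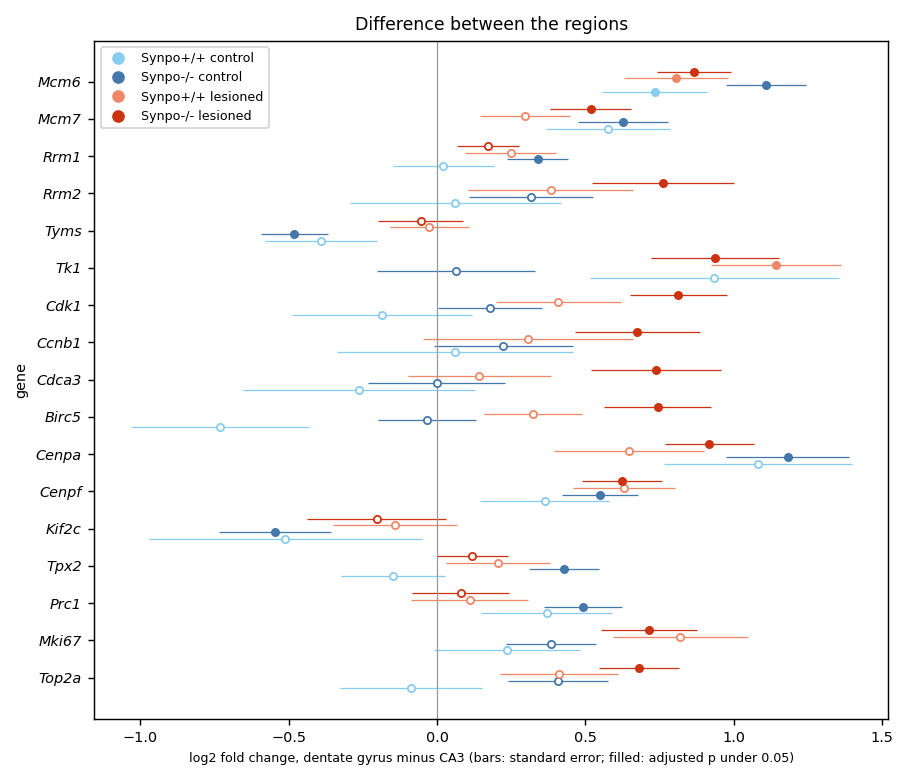
Difference between DG and CA3 (log2 fold change, DG over CA3) for the 17 genes of the set that passed the test in at least 1 regional comparison, in control and lesioned cultures of each genotype (bars for the SE, filled points where the adjusted p was under 0.05). Mcm6 lies above 0 in all 4 comparisons.

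In lesioned cultures labelled Synpo-/-, 12 genes of the set were higher in DG and 0 were lower, where 7.37% of all genes were higher and 6.24% lower. They included Mcm6 (log2 fold change 0.87), Cenpa (0.92), Top2a (0.68), Cdk1 (0.81), Mki67 (0.71), Tk1 (0.94) and Birc5 (0.74). Cdk1 was 8.62 ± 0.332 CPM in lesioned DG (SD, n = 4) and 4.43 ± 0.644 CPM in lesioned CA3 (SD, n = 6), and the libraries of the regions did not overlap. In lesioned Synpo+/+ cultures Tk1 (1.14, adjusted p = 0.0293) and Mcm6 (0.80, adjusted p = 0.0369) were called, where 1.54% of all genes were higher and 0.508% lower in DG. This number depended on single libraries. Without lesioned DG replicate 5, whose Mcm6 level of 9.03 CPM was near that of CA3, 7 genes were called, 6 higher and 1 lower in DG, and without any other single library of this comparison, 3 of CA3 and 6 of DG, 0 were called. The shares of all genes given above belong to the fit with all libraries and were not set beside these counts.

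Other genes of the cycle from lists outside the set moved with it in part. Of 47 further genes of mitosis 11 were higher and 0 lower in Synpo+/+ DG, among them Ube2c, the ubiquitin-conjugating enzyme of anaphase, Pbk, Hmmr, Ncaph and Tacc3. In Synpo-/- DG 5 were higher and 1, Cit, was lower, in the input 23 were higher and Cit was lower, and in CA3 the call was made for Ube2c in Synpo+/+ and for 0 genes in Synpo-/-. Of the further genes of replication 6 of 33 were higher in Synpo+/+ DG and 1, Pold1, was lower, 1 (Gins2) was higher in Synpo-/- DG, and 6 of 34 were higher and 2 lower in the input. The 2 lower in the input were Rfc5 (log2 fold change -0.81, adjusted p = 0.0205) and Dut (-0.84, adjusted p = 0.0411). In Synpo+/+ CA3, by contrast, Dut (1.16) and Rfc5 (0.98) were higher, as was Rfc2 (0.78). Among the cyclins of G1, their kinases and inhibitors, Ccnd1, the cyclin D1 of early G1, was higher in Synpo+/+ CA3 (log2 fold change 1.10, adjusted p = 0.0292) and in Synpo+/+ DG (0.99, adjusted p = 0.0209). Cdk4 and Cdk2 were higher in the DG of both genotypes, and Cdkn2c was higher and Cdkn1b lower in Synpo-/- DG, and of this list Cdk6 was called in the input. Cdkn1a, the inhibitor p21, was not called in any lesion comparison. Among pocket proteins, E2F factors and their partners, Foxm1, the activator of mitotic genes, was higher in the input (1.51, adjusted p = 0.0222) and had log2 fold changes of 0.05 in Synpo+/+ DG and 0.34 in Synpo-/- DG. Lin37 was called in Synpo+/+ DG and Rbl1 in Synpo-/- DG.

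The lesion response was also set beside the promoter motifs described above. In Synpo+/+ DG 8 of the 19 genes with both CCAAT and TTTGAA were called (median log2 fold change 0.63) and 8 of the 20 without both (0.48). In Synpo-/- DG the numbers were 6 of 19 (0.49) and 6 of 20 (0.35), and in the input 14 of 19 (1.5) and 14 of 20 (1.25). Of the 7 genes with an E2F-type site 2, 2 and 5 were called. These shares were not tested against each other. Birc5, whose window holds none of the letters searched, was among the strongest responders in all 3 comparisons.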

How the data were processed

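The deposited files hold, for each library, raw counts of reads per gene symbol. Per the labels and the study's methods, the authors used cutadapt (3.5) for trimming and RNA STAR (2.7.8a) for mapping to mm10 (GRCm38), and counted exonic reads of GENCODE genes with featureCounts (2.0.1) without strand. For 4 libraries the submitters' notes give these tools without versions. Per the study's methods, libraries of the regions, the inputs and the co-immunoprecipitation came from the same low-input kit with cDNA amplification. Reads without molecular identifiers are not independent molecules.

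The counts were compared with edgeR (4.0.16, R 4.3.3), by the quasi-likelihood test after filterByExpr and TMM scaling, with the groups of each comparison alone in the fit, without covariates, and Benjamini-Hochberg adjustment over all genes tested (adjusted p under 0.05 called). Libraries were grouped by GEO's labels. In the input each library pools 6 cultures, and in the regions each is 1 culture. Whether cultures of a group share an animal is not stated, so p-values measure the spread between cultures. Exon lengths and overlaps came from the deposited GENCODE annotation. Alternatives were DESeq2 (1.42.0), RLE in place of TMM factors, the unfiltered table, a mean normalized count over 300, removal of a gene length trend, 1 fit of all 8 regional groups, the replicate number as a block and each library left out in turn. The scripts were tested on simulated counts.

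The 45 genes, the other lists and the markers were chosen with earlier results of these data known. Per-library values are given for up to 12 genes per lesion comparison by smallest p, and in the regional ones always for Mki67, Top2a, Cdk1, Pcna and Mcm5. Of other lists up to 5 called genes per comparison are named, plus Ccnd1, Cdkn1a and Foxm1. The tests of input against DG, of region by lesion, and without overlapping genes, and the shares of all genes with non-overlapping groups in the co-immunoprecipitated libraries, were added after the data were seen. Co-immunoprecipitated libraries were not compared by a test.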

Additional observations from a re-analysis of the deposited data

Results flagged for a closer look

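In groups of 4 to 10 libraries, single libraries of named genes lay far from the others of their group. Top2a was 5.51 CPM in control Synpo+/+ DG replicate 3, below the other controls of 9.01 to 9.68 CPM. Lesioned input replicate 1 was the highest of its group for Top2a (55.4 CPM), Cdk1 (26.6 CPM) and Mcm5 (15.2 CPM). Control input replicate 1 was the lowest of its group for Mki67 (3.7 CPM). Chance flags about 1 in 20 groups, and 23 of 360 combinations of group and gene (6.39%) met the limit, 5 of them in lesioned input replicate 1. Without that library 30 genes were higher in the lesioned input.

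In the libraries co-immunoprecipitated from these lysates with synaptopodin, which no test above used, all 5 lesioned libraries were above all 5 control libraries for 27 of the 45 genes, against 1.82% of the 18449 genes that passed the filter on low counts. The difference was not tested. Mki67 lay between 7.18 and 13.3 CPM in control and between 27.3 and 39.8 CPM after ECL, and Ccnb1 between 2.16 and 3.57 CPM and between 10.1 and 37 CPM.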

How the results depend on the processing

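Genes called under other settings are given here as numbers of the 45 genes, and the cause of each change was not tested unless the setting's construction shows it. The shares of all genes called are those of the filtered edgeR fit with all libraries, unless another fit is named. They were not set beside the numbers given here. In Synpo+/+ CA3 after ECL, where edgeR called 0, DESeq2 called 2 and the fit without a filter on low counts 9. In Synpo-/- CA3, again with 0, DESeq2, the fit without a filter and the replicate block each called 1. A limit of a mean normalized count over 300, under which most of the genes fall, left 2 calls in Synpo+/+ DG, 1 in Synpo-/- DG, 7 in the input, 0 and 1 in the regional comparisons of Synpo+/+ and Synpo-/- controls, and 1 and 1 in those of lesioned cultures. DESeq2 called 1 for the genotype in control DG. Between the regions, Synpo+/+ controls gave 2 with DESeq2, 2 without a filter and 0 with the block, and lesioned Synpo+/+ cultures 4 with DESeq2, 4 without a filter, 4 in the fit of all 8 groups and 6 with the block.

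Same-numbered libraries did not deviate together in every pair (correlations from -0.224 to 0.54). Between DG and CA3 of Synpo-/- controls the correlation was 0.54 for number 4, and over the 6 numbers it ranged from -0.0151 to 0.54. The labels do not say whether same-numbered libraries share a culture or animal. Whether the numbers pair the samples was therefore not settled, and the main tests treated the libraries as unpaired. The fit with the replicate number as a block, which holds fewer libraries, called 14 genes in Synpo+/+ DG, 3 in Synpo-/- DG and 31 in the input. Leaving out each library in turn gave 12 to 17 calls in Synpo+/+ DG, 9 to 14 in Synpo-/- DG, 28 to 34 in the input, 0 in both CA3 comparisons and in both interactions, 0 to 1 for the genotype in control DG, 0 to 2 between the regions in Synpo+/+ controls and 0 to 7 in lesioned Synpo+/+ cultures.

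The sign was followed for called genes and, in the lesion comparisons, also for Mki67, Top2a, Cdk1, Pcna and Mcm5. Among these it turned only for Mcm5 and Pcna. Other genes of the set were not followed singly. In Synpo+/+ CA3 31 to 36 of the 45 genes were positive without single libraries, against 37 with all of them. Mcm5 in Synpo+/+ CA3 was -0.0046 with RLE size factors, -0.179 with the length trend removed, -0.0448 with the block and from -0.15 to 0.15 without single libraries. Pcna was -0.064 with the length trend removed in Synpo+/+ CA3, from -0.13 to 0.023 without single libraries in Synpo-/- CA3 (positive without lesioned replicate 6), and -0.042 with the length trend removed, -0.096 with the block and from -0.025 to 0.15 without single libraries in Synpo-/- DG. Genes with few counts, such as Plk1 and Ttk, limit what the regional libraries can show.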

Other observations

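For 2 whole-culture inputs labelled Synpo-/- the labels give no lesion state, and they entered no comparison. Mki67 had 8.05 and 7.88 CPM, Top2a 13.5 and 16.5 CPM, Ccnb1 4.94 and 6.88 CPM, Cdk1 8.68 and 7.74 CPM and Pcna 106 and 117 CPM. The summed level of the 45 genes was 470.3 and 489.9 CPM.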
